A study of Homo sapiens with 2 samples.

Results

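The keratin genes are those whose symbol on the array reads KRT followed by a number and at most 1 letter, and 44 of the 19775 genes measured met this rule. They were read by 56 probe sets, and for each gene the probe set with the highest mean of both arrays was used, a choice made without regard to the difference. The arrays held RNA of QGP1 cells, an established human line from a pancreatic neuroendocrine tumour (pNET). One array carried the RNA of a fraction that flow sorting had selected for high aldehyde dehydrogenase (ALDH) activity, a property used to enrich stem-like tumour cells, and the other the RNA of control cells of the line. The labels give no drug, gene alteration or culture time for either group. Both RNAs came from 1 line, and no source used here says whether the control cells were sorted too. With 1 array a group, no difference below has a replicate check or a p-value.

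Keratins are the intermediate filament proteins of epithelial cells. A filament is built from pairs of an acidic type I and a basic type II keratin, so the cell makes both types together. KRT8 and KRT18 are the pair of simple epithelia such as pancreatic ducts and islets, with KRT7 and KRT19 added in ductal cells. KRT5 with KRT14 or KRT15 is the pair of the basal layer of stratified epithelia, KRT1 with KRT10 that of the layers above it, KRT4 with KRT13 that of the oral and oesophageal lining, and KRT6A with KRT16 that of injured or hyperproliferative epidermis. Other keratins build hair and its root sheath.

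A few keratins of basal and stratified epithelia differed between the arrays, in both directions, while the simple epithelial pair KRT8 and KRT18 was level. KRT14 was 15.5-fold higher in ALDH-high cells, KRT13 2.14-fold, KRT16 1.95-fold and KRT5 1.84-fold, whereas KRT15 was 2.20-fold lower. KRT8, KRT18 and KRT7 differed by at most 0.02 on the log2 scale. Most of the family was dim. Over 2-fold were 2 keratins higher, against 0.465% of all genes, and 1 lower, against 1.23% of all genes. At 1.5-fold the counts were 5 higher, against 2.61% of all genes, and 1 lower, against 4.21%. At 3-fold they were 1 higher, against 0.121%, and 0 lower, against 0.293%. The family had a median difference (ALDH high minus control, log2) of 0, with 18 members above 0, 20 below and 6 equal. Over all genes the median was -0.01. The median absolute difference was 0.12 for the keratins and 0.16 for all genes, so that of the keratins was the smaller.

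**Figure D1:**
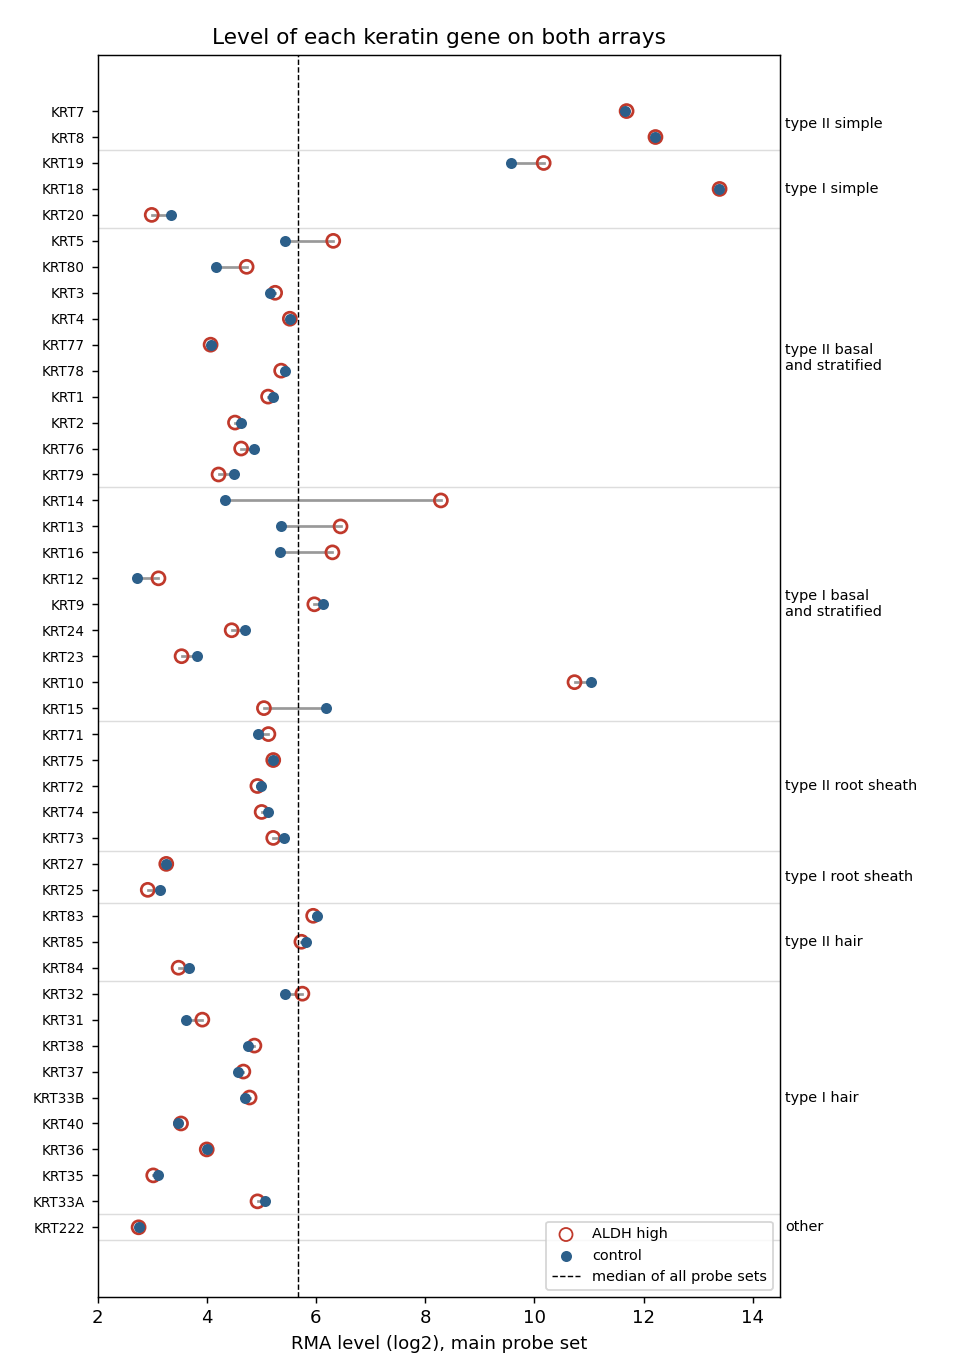
RMA level (log2) of the main probe set of each of the 44 keratin genes, by class, in ALDH-high cells (open red circles) and control cells (blue dots), 1 array each; the dashed line is the median of all probe sets, 5.68. KRT14 has the longest line, from 4.33 in control to 8.29 in ALDH high, and the symbols of KRT7, KRT8 and KRT18 lie on each other.

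The levels are RMA values on the log2 scale, 1 array per group. They depend on each probe set's own binding, so they are compared between arrays and never between keratins. A level under the array median of 5.68 is called dim here, since the deposited values carry no detection call. By this measure 14 keratins reached the median on at least 1 array, 8 on both, and 30 on neither. The share of all genes that reach it was not computed, for the keratins or for the lists below. These counts therefore describe the members and do not set them apart from other genes. The difference between arrays varied among probe sets of one gene with a pooled SD of 0.23 over 10523 genes. That spread does not cover variation between cultures or sorts.

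Of the 5 keratins of simple epithelia, none was over 2-fold different, against 1.69% of all genes. KRT18, the type I keratin of simple epithelia, stood at 13.39 in ALDH-high and 13.38 in control cells. Its type II partner KRT8 stood at 12.22 and 12.20. KRT7, a type II keratin of ductal and glandular cells, stood at 11.69 and 11.67 on its main probe set, and its other 3 probe sets differed by 0, 0.14 and -0.002. These 3 genes gave nearly the same signal on both arrays, on bright probe sets with IDs of a kind that can bind related transcripts.

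KRT19, a small type I keratin of ducts that lacks the tail domain, was the exception among the bright simple keratins. Its level was 10.17 in ALDH-high and 9.58 in control cells, 1.51-fold higher, and its second probe set was dim and differed by -0.08 (4.26 against 4.34). The mean over both probe sets was 0.26. KRT20, a keratin of intestinal epithelium, was dim on both arrays, at 2.99 and 3.35.

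Among the 19 measured keratins of basal and stratified epithelia, 7 lay above 0, 10 below and 2 were equal, with a median of -0.07. The large differences were those of a few genes of the basal layer, of the lining of mouth and oesophagus, and of injured or hyperproliferative epidermis. KRT14, the type I keratin of basal cells, stood at 8.29 in ALDH-high and 4.33 in control cells, a difference of 3.95 on its 1 probe set. It ranked 2 of 19775 genes by positive difference. Its control level lay at the 27.0th percentile of that array, so the fold is taken against a dim level.

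KRT5, the type II partner of KRT14, stood at 6.32 in ALDH-high and 5.44 in control cells, a difference of 0.88. It ranked 143 among positive differences and stayed under 2-fold. The basal pair was therefore higher on both sides, by unequal amounts. KRT15, a type I keratin of basal cells and of hair follicle stem cells that also pairs with KRT5, went the other way, with 5.05 in ALDH-high and 6.18 in control cells, a difference of -1.14. It ranked 167 among negative differences, and its lower level was dim.

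KRT13, the type I keratin of non-cornifying stratified epithelia, stood at 6.45 in ALDH-high and 5.35 in control cells, a difference of 1.10. Its type II partner KRT4 was dim, at 5.52 on both arrays, and the second KRT4 probe set differed by -0.10. KRT16, the stress-induced type I keratin, stood at 6.30 and 5.34, a difference of 0.97, and its usual partner KRT6A was not analysed here. Each of KRT13, KRT16 and KRT5 was above the array median in ALDH-high cells and below it in control cells, and each rested on 1 probe set. The KRT13 probe set can bind related transcripts. KRT14 and KRT16 are close relatives, and how far one transcript adds to the other's signal was not tested.

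**Figure D2:**
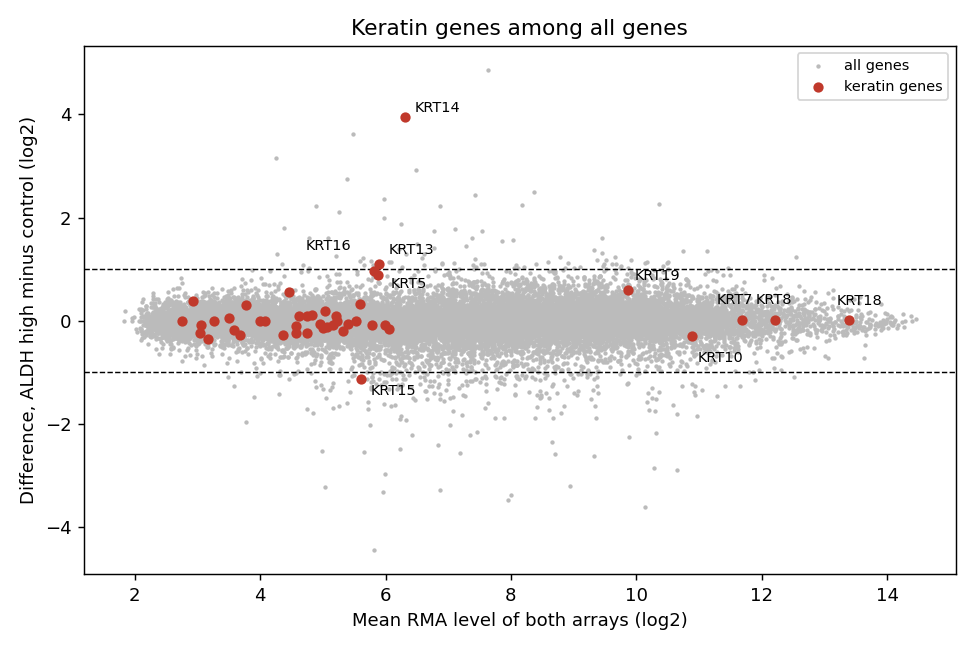
Difference (ALDH high minus control, log2) against the mean RMA level of both arrays (log2) for 19775 genes (grey) and the 44 keratin genes (red); dashed lines mark 2-fold. KRT14 stands at 3.95, KRT5, KRT13 and KRT16 sit between 0.88 and 1.10, and KRT7, KRT8 and KRT18 lie near 0 at high levels.

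Other keratins of stratified epithelia differed less. KRT10, the type I keratin of suprabasal epidermis, was bright, at 10.74 in ALDH-high and 11.03 in control cells. Its 3 probe sets differed by -0.30, -0.32 and -0.44, all lower in ALDH-high cells and all open to related transcripts. Its type II partners were dim, KRT1 at 5.12 against 5.21 and KRT2 at 4.52 against 4.62. KRT9, the keratin of palm and sole epidermis, stood at 5.97 and 6.12. KRT80, a widely expressed type II keratin, differed by 0.55 at a dim level (4.73 against 4.18).

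The 19 measured keratins of hair and root sheath ranged from -0.23 to 0.32, with a median of 0. KRT32, KRT83 and KRT85, keratins of the hair shaft, reached the array median on at least 1 array. KRT32 stood at 5.75 in ALDH-high and 5.43 in control cells. KRT83 was at 5.95 and 6.03, and KRT85 at 5.73 and 5.83. None of these hair keratins showed a difference of the size seen for KRT14.

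The 30 keratins dim on both arrays had levels from 2.73 to 5.52 and differences from -0.35 to 0.55. Of these 9 were higher, 15 lower and 6 equal. In 21 of the 44 keratins the size of the main probe set's difference was shared, to 6 decimals, by 20 or more probe sets of the table, as was so for 29.5% of all probe sets compared. Such values carry little information about the gene, so a dim keratin here was neither shown to be expressed nor shown to be absent.

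The type I and type II genes lie in clusters on chromosomes 17 and 12, with the type I gene KRT18 at the edge of the latter, and the larger differences lay mostly in 1 stretch. Consecutive among the keratin genes of chromosome 17 are KRT13, KRT15, KRT19, KRT9, KRT14 and KRT16, in that order in the RefSeq gene table of GRCh38.p14. These 6 neighbours held 5 of the 6 largest absolute keratin differences, the exception being KRT5 on chromosome 12. The ends of this stretch were chosen after the values were seen, so the count is a description only. They did not move as a block. Their differences in that order were 1.10, -1.14, 0.60, -0.15, 3.95 and 0.97. The nearest measured genes that are neither keratins nor keratin-associated proteins, 5 on each side of the stretch, ranged from -0.34 to 0.54. The focal adhesion gene TNS4 was highest, and JUP, the desmosomal plakoglobin gene, was at -0.02. Keratin and keratin-associated genes were passed over to reach them, so they need not adjoin the stretch. On chromosome 12, KRT8 and KRT18 are neighbours within the family and were level together.

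**Figure D3:**
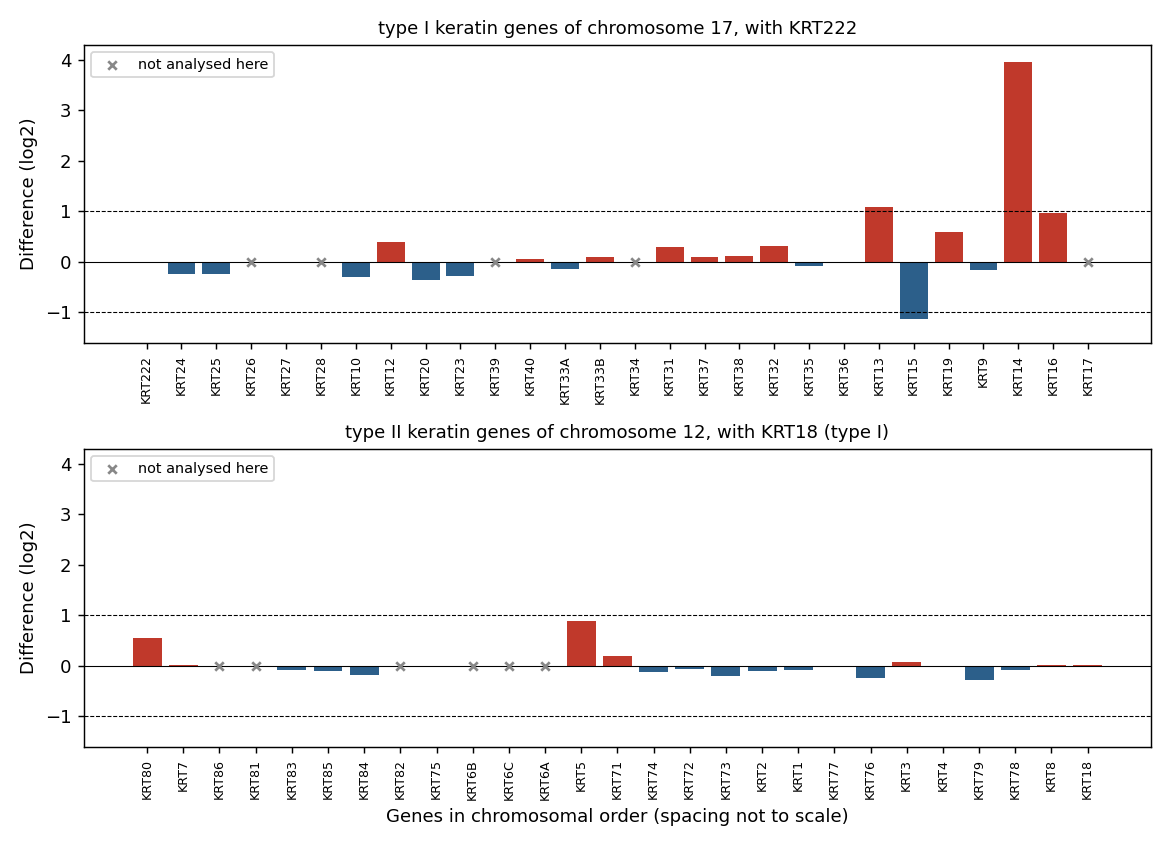
Difference (ALDH high minus control, log2) of the keratin genes in chromosomal order on chromosome 17 (top) and chromosome 12 (bottom), with red bars higher and blue bars lower in ALDH high, no bar for equal values, crosses for genes not analysed here and dashed lines at 2-fold. The stretch from KRT13 to KRT16 holds bars of both signs, from -1.14 for KRT15 to 3.95 for KRT14.

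Over both types, 3 of 23 type I keratins and 0 of 20 type II keratins were over 2-fold different, against 1.69% of all genes, with medians of 0.01 and -0.07. KRT222, a keratin-like gene of the chromosome 17 cluster that belongs to neither count, was dim and equal on both arrays. Set side by side, the partners gave 0.01 for both KRT8 and KRT18, 0.02 for KRT7 and 0.60 for KRT19, and 0.88 for KRT5 and 3.95 for KRT14. The partners differed in direction for KRT5 at 0.88 and KRT15 at -1.14. KRT4 gave 0 where KRT13 gave 1.10, but KRT4 was dim and its difference was 1 of those shared by 20 or more probe sets. KRT1 gave -0.09 and KRT2 -0.10, against -0.30 for KRT10. KRT3 and KRT12, the pair of the corneal epithelium, gave 0.09 and 0.39 at dim levels.

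The RefSeq promoter table used here (GRCh38.p14) held 29 of the 44 keratins by symbol, and the 150 bases before the gene start were read. Promoters of KRT7, KRT13, KRT14, KRT15, KRT16, KRT18 and KRT19 were not analysed here, so of the 6 keratins with the largest differences only KRT5 is covered. The sequences shown are those of KRT5, the type II basal keratin that was higher, KRT8, the simple keratin that was level, and KRT10, the suprabasal keratin that was lower. Capitals mark matches on either strand to the TATA box, searched as TATAAA, the AP-1 element, searched as TGANTCA, the GC box, searched as GGGCGG, or an E-box, searched as CAGGTG. No match overlapped another in these windows. All 3 are on the minus strand and written 5′ to 3′.
KRT5, chr12:52520395-52520544: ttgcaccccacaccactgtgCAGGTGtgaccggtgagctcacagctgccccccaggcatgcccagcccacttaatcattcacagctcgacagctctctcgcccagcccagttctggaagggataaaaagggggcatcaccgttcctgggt
KRT8, chr12:52926470-52926619: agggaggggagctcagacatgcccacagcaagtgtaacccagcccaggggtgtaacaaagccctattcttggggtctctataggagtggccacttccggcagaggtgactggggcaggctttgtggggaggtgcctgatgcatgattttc
KRT10, chr17:40822615-40822764: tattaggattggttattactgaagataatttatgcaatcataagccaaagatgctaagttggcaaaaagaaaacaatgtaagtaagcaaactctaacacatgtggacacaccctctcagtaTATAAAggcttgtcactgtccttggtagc
KRT10 held a TATA box 29 bases before its start and KRT5 an E-box 130 bases before its start, while KRT8 held no match to these letters. Only exact letters were searched, so variants were not marked, such as the stretch ataaaaa in the KRT5 window. A window without a match may therefore still hold a variant of these elements. Of the 29 keratin promoters, 14 held TATAAA (48.3%), against 7.05% of 27305 promoters of the same length. GGGCGG was found in 3 (10.3%), against 36.7% of all, CAGGTG in 3 (10.3%), against 10.7%, and TGANTCA in 0, against 4.14%. These shares describe related genes that arose by duplication, and no test was made of them.

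Of 4 measured hemidesmosome genes, which anchor KRT5 and KRT14 filaments to the basement membrane, LAMB3, a chain of laminin-332, was the 1 over 2-fold higher, against 0.465% of all genes. It stood at 7.65 in ALDH-high and 5.91 in control cells, a difference of 1.74 on its 1 probe set. ITGB4, the integrin chain that binds keratins through plectin, stood at 6.90 and 6.02, but its other 4 probe sets differed by -0.17 to 0.12. CD151 and ITGA6 differed by -0.01 and 0.22. The list's median was 0.56, and 0.25 with the mean over probe sets.

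Among 16 plakins and keratin linkers, 12 lay above 0, none was over 2-fold on its main probe set, against 1.69% of all genes, and the median was 0.13. SFN, the 14-3-3 sigma protein of stratified epithelia that binds keratins, had the largest difference, at 11.63 in ALDH-high and 10.66 in control cells. Its 3 probe sets agreed in direction, with differences of 0.79 to 0.97. DSP, the desmoplakin that ties keratins to desmosomes, stood at 12.01 and 11.46. DST, whose epithelial form links KRT5 and KRT14 filaments to hemidesmosomes, differed by 0.21 on its main probe set, but its 10 probe sets ranged from -0.18 to 1.74. Of these, 2 were over 2-fold higher in ALDH-high cells, at 7.40 against 5.66 and at 7.26 against 6.07. Of 7 desmosomal cadherins none was over 2-fold and the median was 0, with DSC2 at 0.44 and DSG3, the cadherin of basal keratinocytes, dim at 4.29 and 4.56.

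Of 15 other intermediate filament genes, none was over 2-fold, against 1.69% of all genes. Of these 11 lay above 0 and the median was 0.13, which fell to 0.01 without probe sets open to related transcripts. VIM, the filament of mesenchymal cells, stood at 6.53 in ALDH-high and 5.84 in control cells on its main probe set, and its second probe set was dim and differed by -0.15. LMNB1, a nuclear lamin, differed by 0.51 (10.97 against 10.46), and PRPH, the peripherin of neurons and neuroendocrine cells, by -0.32 (6.77 against 7.09).

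The transcription factors listed are known to act on epithelial and keratin genes. Of 15 measured, none was over 2-fold, against 1.69% of all genes, 7 lay above 0 and 8 below, and the median was -0.09. The 3 with the largest differences, KLF5, ELF3 and GRHL1, were all lower in ALDH-high cells. KLF5, a factor of proliferating basal and gut epithelium, stood at 7.89 in ALDH-high and 8.84 in control cells, and its second probe set differed by -0.91. ELF3, an epithelial ETS factor, stood at 8.91 and 9.81, with its 3 probe sets from -0.91 to -0.46. GRHL1, a grainyhead factor of epithelial differentiation, stood at 8.69 and 9.43, and its second probe set differed by -0.43. The next largest difference was that of TFAP2A, an activator of basal keratin genes, at 9.97 in ALDH-high and 9.45 in control cells. TP63 was not analysed here.

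Late squamous genes, which mark cornifying cells, gave a median of 0 over 16, with 8 above 0 and 8 below. Over the 7 members that reached the array median on at least 1 array the median was -0.22. Of these, CSTA and CNFN (5.48 in ALDH-high and 5.71 in control cells) reached it in control cells only. The filter thus let both in through the group where they were higher. Without probe sets open to related transcripts the median was 0.14. CSTA, the cystatin A protease inhibitor of the cornified envelope, was the 1 member over 2-fold lower, against 1.23% of all genes, at 4.99 in ALDH-high and 7.47 in control cells, a difference of -2.48. TGM3, a transglutaminase of that envelope, stood at 5.72 and 6.30. IVL and LORICRIN, the main envelope proteins, were dim on both arrays, with differences of -0.14 and -0.18.

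**Figure D4:**
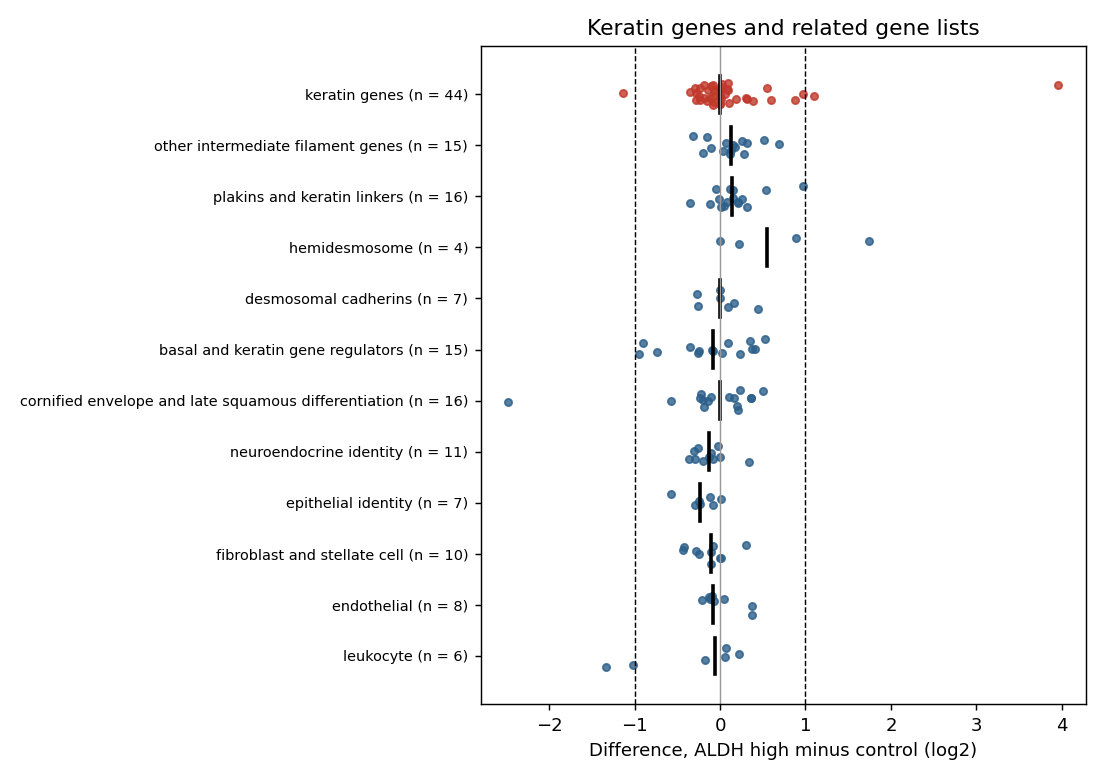
Difference (ALDH high minus control, log2) of each gene (dots) in the keratin family (red) and in related lists (blue), with the list's median as a black bar, dashed lines at 2-fold and vertical jitter only for display. LAMB3 at 1.74 and CSTA at -2.48 are the farthest dots outside the keratins.

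Genes of the line's labelled identity were also listed. All 11 measured neuroendocrine genes and all 7 epithelial genes reached the array median on at least 1 array. That count favours high values, since each gene's brightest probe set was set against all probe sets. The share over all genes was not computed. Of the neuroendocrine genes 9 lay below 0, 1 above and 1 was equal, with a median of -0.13, SCG5, a granule chaperone, at -0.37 and INSM1, a neuroendocrine factor and the 1 member above 0, at 0.34. Of the epithelial genes 6 lay below 0 and 1 above, with a median of -0.23, the splicing factor ESRP1 at -0.57 and the tight junction gene CLDN7 at -0.29. The log2 of the summed linear levels of the epithelial genes was 14.63 in ALDH-high and 14.84 in control cells.

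Except for CSTA of the late squamous genes, markers of other cell types were under 2-fold different on their main probe sets or dim on both arrays. Of 10 fibroblast and stellate cell markers 3 reached the median, FAP and ACTA2 differed most (-0.43 and -0.42), and the log2 of their summed signal was 8.73 in ALDH-high and 8.93 in control cells. Of 8 endothelial markers 2 reached it, 5 lay below 0, the median was -0.09, and the summed signal was 8.34 and 8.30. ESAM and ROBO4 differed most, by 0.37 each, while the second ROBO4 probe set differed by -0.26. Of 6 leukocyte markers 3 reached it on either array, and the summed signal was 7.80 and 8.10. LYZ (-1.33) and CD14 (-1.02) were over 2-fold lower at dim levels, against 1.23% of all genes. The second LYZ probe set differed by -0.42. Of the 16 late squamous genes 7 reached the median. The log2 of the summed signal of all 16 was 9.37 in ALDH-high and 9.66 in control cells. That sum included CSTA, at 4.99 and 7.47, while 8 members lay above 0 and 8 below. Such sums lean on the brightest probe sets of a list. The part of any of these cells in the keratin differences was not tested. In bulk RNA, fewer cells of a type and less RNA per cell cannot be told apart, so the level of KRT14 does not say how many ALDH-high cells carried it.

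**Figure D5:**
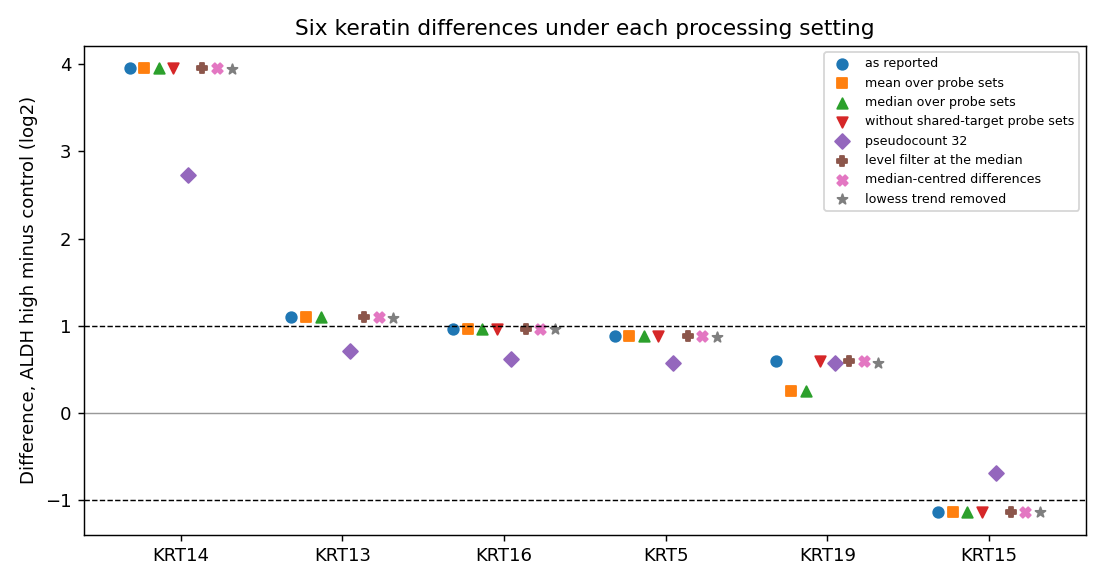
Difference (ALDH high minus control, log2) of 6 keratins as reported and under each processing setting (symbols), with dashed lines at 2-fold; no symbol stands where a setting removes the probe set. KRT14 ranges from 2.72 to 3.95, and KRT13 and KRT15 pass 2-fold except with a pseudocount of 32, at 0.71 and -0.69.

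With 32 added to the linear levels, KRT14 differed by 2.72, KRT13 by 0.71, KRT16 by 0.62, KRT5 by 0.57 and KRT15 by -0.69. Of the keratins over 2-fold, only KRT14 then kept that size. The differences of KRT13, KRT16, KRT5 and KRT15 thus depend on how dim levels are treated. For KRT14 only the pseudocount and the lowess trend could change the value, to 2.72 and 3.94, both over 2-fold. KRT14 has 1 probe set and the median difference of all probe sets was 0. The other settings therefore left its value as it was, by construction.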

How the data were processed

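Per the submitters' processing notes, the authors made the deposited log2 levels with RMA, which corrects the background, quantile-normalises arrays and combines the probes into 1 value per probe set. No source used here gives its version or the set of arrays it ran on. In all, 54675 probe sets were read on each of 2 arrays, and 62 controls were left out. Array medians were 5.68 for both groups, and 18 hybridisation controls differed by 0.05 on average (SD 0.04). Symbols came from GEO's platform annotation. A probe set with several symbols was not used. Symbols were matched through Entrez IDs to a RefSeq table of GRCh38.p14, where all 56 keratin probe sets were found and 0 symbols changed. Of 55 keratins listed, 11 were not analysed here, namely KRT6A, KRT6B, KRT6C, KRT17, KRT26, KRT28, KRT34, KRT39, KRT81, KRT82 and KRT86.

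Each gene's value was the log2 difference of its brightest probe set by mean level, and 2-fold was the threshold, as in the series text. Named are keratins that reached the array median or differed over 1.5-fold, with their partners, and in other lists members over 2-fold, with no fewer than the 2 that differed most. KRT3, KRT12, KRT20, KRT80 and KRT222 were added after their values were seen. So were, outside the family, CD151, ITGA6, DST, PRPH, GRHL1, TFAP2A, IVL, LORICRIN, CNFN, JUP and TNS4. Members, lists and rules were chosen with earlier results of these data known. No test was possible with 1 array a group, and the number of arrays limits the precision. The calculation was tested on simulated data. There all probe sets of a gene shared the same shift and varied less than the real ones. That run checked the arithmetic only. Alternatives were the mean or median over probe sets, no shared-target probe sets (IDs ending in _s_at, _x_at or _a_at), a pseudocount, a filter on dim genes, median centring, a lowess trend and thresholds of 1.5-fold and 3-fold. The filter kept genes that reached the array median on at least 1 array. Python 3.11.15, pandas 2.3.3 and statsmodels 0.14.6 were used.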

Additional observations from a re-analysis of the deposited data

How the results depend on the processing

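No paired analysis was possible because each group had 1 array, and for the same reason no array could be left out. Of 273 values recomputed under the alternatives, 257 kept their side of 2-fold or, for counts, stayed within 1.5 times and, for medians, within 0.23 of the reported value. Many of the 257 could not change, so this count is no measure of stability. Median centring subtracted 0 and repeated all 39 of its values. The 35 keratins with 1 probe set keep their difference with the mean or median over probe sets. The filter on dim genes alters no single gene's difference. No keratin over 2-fold changed sign. Opposite in sign were 4 small values. They were the medians of fibroblast markers (0.01 with the mean over probe sets), leukocyte markers (0.06 with the filter on dim genes) and late squamous genes (0.14 without shared-target probe sets), and KRT7 (-0.002 without shared-target probe sets). KRT19 was 0.26 as the mean over probe sets. The count of keratins over 2-fold higher was 1 without shared-target probe sets, where KRT13 has no value, and 1 with a pseudocount of 32. It was 5 at a 1.5-fold threshold and 1 at 3-fold. The count lower was 0 with the pseudocount and 0 at 3-fold. With the pseudocount KRT13 differed by 0.71 and KRT15 by -0.69, by the construction of a constant added to dim levels. The median of the hemidesmosome genes was 0.25 with the mean over probe sets, 0.19 with their median and 0.22 without shared-target probe sets. The count of leukocyte markers over 2-fold was 1 under each of those settings, 0 with the pseudocount and 0 with the filter on dim genes. The lowess trend ranged from -0.04 to 0.03. KRT4, KRT8, KRT10, KRT13, KRT18, KRT23, KRT33A, KRT35 and KRT72 rest on shared-target probe sets alone, and dim levels limit what 30 of the 44 keratins can show.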

Other observations

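The keratin-associated proteins, which crosslink hair keratins, were measured as 33 genes. None was over 2-fold different, against 1.69% of all genes. Of the 33, 16 lay above 0, 13 below and 4 were equal, and the median was 0, with a range from -0.32 to 0.26. Of them 7 reached the array median on at least 1 array, and the share over all genes was not computed.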
